A study of Mus musculus with 192 samples.

Results

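Pi-ATAC is a protein-indexed form of the assay for transposase-accessible chromatin, in which the Tn5 transposase cuts and tags open DNA and each cell is sorted by its antibody staining. The open regions described here lie inside introns, outside promoters, yet close to the start of a gene. From the 50000 deposited windows of 500 bp, each centred on a peak summit, the windows kept came from a peak with 1 summit, had a midpoint inside a protein-coding gene body but in no annotated exon, and lay more than 1 kb from every protein-coding or long non-coding transcript start. Their midpoints were also at most 10 kb from the nearest protein-coding start. This left 5533 windows, 11.1% of the list and 37.6% of its 14701 intronic windows. They are called start-proximal intronic windows below. The 7793 single-summit intronic windows over 10 kb from a protein-coding start, called far intronic windows, served as the comparison.

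By their titles, 96 of the 192 cells came from 4T1, a breast cancer line of the mouse, and were sorted for EpCAM, and 96 were splenocytes sorted for CD45. The source names give 95 and 97, because 1 sample titled as a 4T1 cell is described there as a splenocyte. The splenocytes were freshly isolated from the spleen of a single MMTV-PyMT transgenic mouse, which carried no tumour at the time. Both cell types were mixed, fixed together, transposed in bulk and then index sorted singly, so fixation and transposition were shared. The list holds positions and peak names with no score or count, and was read as 1 pooled list of both groups. According to the methods, only the top peaks with the lowest q-values were kept in most datasets. A gene or region without a window may thus hold a peak that missed this cut. Its absence from the list does not show closed DNA. The list is named for 4T1 and spleen, and its peak names hold the words cell line and all. By the methods, however, summits were called per condition, so the pooled reading is not settled. A window can not be assigned to 4T1 cells or to splenocytes, and no difference between these groups could be tested.

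Introns near a gene start, and the first intron in particular, often hold enhancers, short stretches of DNA that bind transcription factors and raise the activity of a promoter nearby or far away. Binding by several factors displaces nucleosomes and opens such DNA to transposase. AP-1 dimers of FOS and JUN proteins act at many enhancers of growth factor-stimulated and epithelial cells, the ETS protein PU.1 and the RUNX factors act at enhancers of blood cells, TEAD factors carry the output of the Hippo pathway in adherent cells, and CTCF binds at insulators and the anchors of chromatin loops.

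Members inside Epcam, whose product was the sorting marker of 4T1 cells, are shown first, followed by members in genes of 4 gene lists whose AP-1 word lies near the summit. The last pair, a CTCF and a PU.1 example with the word over the summit, was chosen after the word shares had been seen. Each line gives the central bases of the window on the plus strand of mm9, and capitals mark the copies of the named word. AP-1 was searched as TGAGTCA and PU.1 as GAGGAAGT, both on either strand, and CTCF by a longer consensus. Neither Epcam member held an AP-1, PU.1, RUNX or TEAD word or the ETS word CAGGAAG in these bases, so both are printed without capitals. The first of them held the interferon response core GAAANNGAA and the STAT word TTCNNNGAA.
Epcam, chr17:88036483-88036683: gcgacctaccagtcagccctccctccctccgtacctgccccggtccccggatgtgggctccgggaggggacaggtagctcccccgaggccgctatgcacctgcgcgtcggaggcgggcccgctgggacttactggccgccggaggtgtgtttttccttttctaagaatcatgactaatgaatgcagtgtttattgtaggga
Epcam, chr17:88037285-88037485: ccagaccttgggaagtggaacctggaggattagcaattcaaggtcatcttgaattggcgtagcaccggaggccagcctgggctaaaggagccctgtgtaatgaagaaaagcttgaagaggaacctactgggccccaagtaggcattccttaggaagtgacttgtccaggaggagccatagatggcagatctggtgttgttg
Pkp2, chr16:16217109-16217309: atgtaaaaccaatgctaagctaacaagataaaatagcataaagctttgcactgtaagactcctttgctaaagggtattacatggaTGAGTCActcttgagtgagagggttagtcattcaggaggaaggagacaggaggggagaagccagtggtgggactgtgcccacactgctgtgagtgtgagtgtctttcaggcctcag
St14, chr9:30933765-30933965: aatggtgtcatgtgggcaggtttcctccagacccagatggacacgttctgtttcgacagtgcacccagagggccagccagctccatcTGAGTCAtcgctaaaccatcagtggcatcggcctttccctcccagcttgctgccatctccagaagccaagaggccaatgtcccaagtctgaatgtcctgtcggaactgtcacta
Map2k3, chr11:60748932-60749132: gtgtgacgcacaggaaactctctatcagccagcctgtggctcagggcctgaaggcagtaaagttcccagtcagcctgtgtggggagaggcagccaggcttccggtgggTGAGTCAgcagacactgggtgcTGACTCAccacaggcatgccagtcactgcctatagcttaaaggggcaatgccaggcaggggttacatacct
Smad3, chr9:63522522-63522722: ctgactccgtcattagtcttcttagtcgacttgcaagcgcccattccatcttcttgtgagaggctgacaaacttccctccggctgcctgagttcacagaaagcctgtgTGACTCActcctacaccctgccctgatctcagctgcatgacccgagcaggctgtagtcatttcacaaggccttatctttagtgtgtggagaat
Cyp46a1, chr12:109576883-109577083: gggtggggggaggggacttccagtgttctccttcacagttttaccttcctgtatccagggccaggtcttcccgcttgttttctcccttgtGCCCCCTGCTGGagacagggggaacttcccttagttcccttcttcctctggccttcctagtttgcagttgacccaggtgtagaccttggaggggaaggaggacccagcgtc
Rell1, chr5:64326481-64326681: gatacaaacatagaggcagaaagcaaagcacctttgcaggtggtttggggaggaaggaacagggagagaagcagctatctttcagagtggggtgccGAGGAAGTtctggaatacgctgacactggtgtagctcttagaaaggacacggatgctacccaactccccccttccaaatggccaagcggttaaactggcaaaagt

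The Epcam members lay 1.26 and 2.07 kb downstream of an Epcam start, in introns that are not the first intron of any annotated transcript. The first of them had a GC content of 56.6% over its whole window and the other 48.4%. The Pkp2 member, in the first intron of the gene for the desmosome protein plakophilin 2, lay 3.77 kb downstream of a Pkp2 start and carried its AP-1 word 12 bases before the summit. The St14 member, in the first intron of the gene for the epithelial serine protease matriptase, lay 5.52 kb downstream with the word 10 bases before the summit. The Map2k3 member, in the first intron of a MAP kinase kinase gene, lay 3.46 kb downstream and held 2 copies of the AP-1 word in the printed bases. The Smad3 member lay in the first intron of the gene for a TGF-beta signal transducer. It lay at -8.27 kb from the nearest Smad3 start, where negative distances are upstream of the start. The Cyp46a1 member, 4.40 kb downstream of the start, had its CTCF word over the summit, and the Rell1 member, at -4.43 kb from the nearest Rell1 start in a later intron, had its PU.1 word there.

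The windows crowded toward gene starts. Per Mb of eligible intron, meaning intron sequence that satisfied the same position rule, there were 35.8 windows at 1 to 2 kb from the start and 16.6 at 9 to 10 kb, a ratio of 2.16 (95% interval 1.91 to 2.45). Most of the fall came early: the rate was 23.3 per Mb at 2 to 3 kb, 21.3 at 3 to 4 kb, and between 16.6 and 19.7 in each bin from 4 kb on. The whole set had 22.3 windows per Mb (21.7 to 22.9) and the far intronic windows 12.6 (12.3 to 12.9), so that the rate at 9 to 10 kb (14.8 to 18.5) was still above that of distant introns. All intervals here and below are 95% intervals that cover counting error over windows treated as independent. They say nothing of the spread between cells or animals, for which the pooled list has no replicates.

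The median distance to the nearest protein-coding start was 3.75 kb, with quartiles of 1.98 and 6.43 kb. The closest member lay at 1002 bp and the most distant at 9991 bp. On either side of the limits the list went on. Within 500 bp beyond the inner limit of 1 kb from any start lay 838 members, and within 500 bp short of it 1484 single-summit intronic windows outside the set. At the outer limit 321 members lay at 9 to 10 kb and 308 far intronic windows at 10 to 11 kb.

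Windows downstream of their nearest start made up 71.4% of the set (3949 of 5533). Since more eligible intron lies downstream than upstream, the rates differed less, with 23.4 windows per Mb downstream and 20.0 upstream (ratio 1.17, 1.10 to 1.24). The gap was widest at 1 to 2 kb, where there were 41.3 windows per Mb downstream (38.8 to 43.8) and 25.1 upstream (22.5 to 28.0). From 3 kb on the intervals of both sides overlapped in every bin.

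First introns held 3412 of the windows (61.7%), against 35.5% of the far intronic windows. Eligible intron near starts held 129 Mb of first and 119 Mb of later intron, and far from starts 187 and 433 Mb. The position rule thus bears on these shares. Per Mb near starts, first introns had 26.5 windows (25.7 to 27.5). Intron sequence that is never a first intron had 17.8 (17.0 to 18.5), a ratio of 1.50 (1.42 to 1.58). Within distance bins the ratio was above 1 in each of the 9, from 1.63 (1.44 to 1.84) at 1 to 2 kb to 1.19 (1.00 to 1.41) at 4 to 5 kb. Beyond 10 kb the ratio between first and later introns was 1.27 (1.21 to 1.33).

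**Figure D1:**
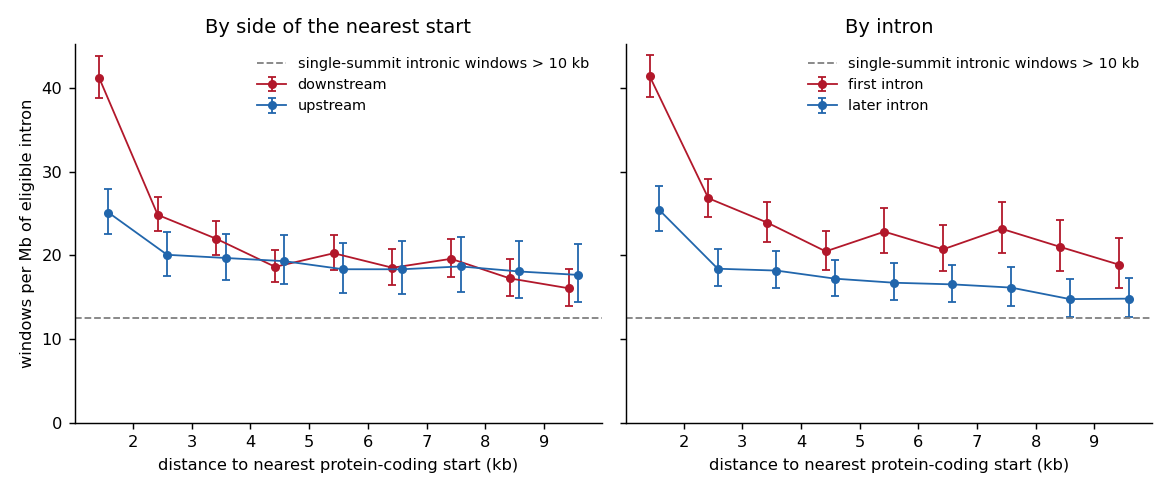
Start-proximal intronic windows per Mb of eligible intron (vertical axis) by distance to the nearest protein-coding start in kb (horizontal axis), split by side of the start (left) and by intron (right). Points are rates in 1 kb bins, bars are exact 95% Poisson intervals, and the dashed line is the rate of far intronic windows, 12.6 per Mb; the rate falls from 41.3 downstream and 25.1 upstream at 1 to 2 kb, and first introns stay above later introns in every bin.

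The nearest protein-coding start belonged to a gene whose body held the window for 93.0% of the members (5146), and 3.47% (192) lay in more than 1 protein-coding gene body. The rule favours a high first share, since it asks for a midpoint in a gene body and near a start. That share was not computed for eligible intron, and position alone does not show which gene a window acts on. The median distance from the midpoint to the nearest exon was 1495 bp, and 12.0% of the windows (663) reached into an exon with their edge. The gene of the nearest start had a window within 1 kb of a start for 75.8% of the members (74.6 to 76.9). This share was 65.2% (64.1 to 66.2) for the far intronic windows, a difference of 10.6 percentage points (9.07 to 12.2). Among all 22350 annotated protein-coding genes 47.3% had such a promoter window, but this share counts genes and includes those without eligible intron. Of the 18473 genes with eligible intron 9937 had a promoter window. These 9937 held 156 Mb of eligible intron and the other 8536 held 101 Mb, summed over genes. The nearest other window of any kind lay at a median of 3.42 kb from a member, and 59.1% of the members had another window within 5 kb. The far intronic windows are no comparison for this, since the distance rule keeps them away from windows at protein-coding starts.

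In base composition the members stood with other introns and not with promoters. Their median GC content was 49.6% (quartiles 46.0 and 53.2%), against 48.2% in far intronic windows and 59.4% in the 11242 single-summit windows within 1 kb of a start. The flanks of the members, 500 bp stretches centred 2 kb to either side of the summit that overlap no deposited window, had a median of 46.8%. CpG-rich windows, with at least 50% GC and an observed over expected CpG ratio of at least 0.6, numbered 148 (2.67%, 2.28 to 3.13). They were more frequent than among far intronic windows (0.552%, 0.410 to 0.742) and much less so than within 1 kb of a start (59.7%). Of these 148 windows 32.4% (25.4 to 40.3) held the SP/KLF word GGGGCGGG and 5.41% (2.76 to 10.3) the AP-1 word, against 4.05 and 23.4% of the rest. GGGGCGGG is itself made of G and C and holds a CpG, so the choice of windows by composition bears on these shares.

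Of 28 transcription factor words searched on both strands, AP-1 stood out. It was found in 1267 members, or 22.9% (21.8 to 24.0), against 8.32% of their 9686 flanks, a ratio of 2.75 (2.54 to 2.99). Across all 50000 windows the share was 19.8%. Copies of the AP-1 word were spread over the central part of the window, with 15.0 to 19.3 copies per 1000 members in each 25 bp bin from 125 bp before to 150 bp after the summit. At the window edges there were 5.42 and 5.96 copies per 1000 members. In the flanks the count stayed between 2.89 and 5.99 per 1000 throughout.

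The CTCF consensus had a larger ratio at a low share. It was found in 97 members (1.75%, 1.44 to 2.13), in 0.423% of flanks and in 1.83% of all windows, and the ratio of members to flanks was 4.14 (2.88 to 5.96). PU.1, the ETS factor of myeloid and B cells, had its word in 5.26% of members and 3.08% of flanks (ratio 1.71, 1.46 to 2.00), with 4.63% over all windows. Of the PU.1 copies in members 18.2% (14.2 to 23.0) lay within 50 bp of the summit, against 22.4% in flanks. The Rell1 example, with its word over the summit, is not typical in this. The more general ETS word CAGGAAG, whose copies overlapped none of the 297 PU.1 copies in members, was found in 24.9% of members, 19.6% of flanks (ratio 1.27, 1.20 to 1.35) and 23.1% of all windows. A second ETS word, CCGGAAG, was rarer at 3.65% of members against 2.40% of flanks and 8.56% of all windows.

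Further words were also more frequent in members than in flanks. The ratio was 1.65 (1.40 to 1.94) for the SP/KLF word, 1.37 (1.25 to 1.50) for the KLF word CCCCACCC and 1.33 (1.23 to 1.44) for the AP-2 word GCCNNNGGC. The SP/KLF, KLF and AP-2 words are rich in G and C, and the members had more GC than the flanks. What base composition adds to their ratios was not tested. NF-kB, the inflammatory factor of lymphocytes and myeloid cells, had its consensus in 7.57% of members and 8.06% of all windows (ratio to flanks 1.40, 1.24 to 1.59). The TEAD word ACATTCC was found in 8.73% of members and 7.78% of all windows (1.34, 1.20 to 1.50), and the RUNX word TGTGGTT in 14.0% and 11.3% (1.17, 1.07 to 1.27). The E-box CAGCTG, bound by basic helix-loop-helix proteins, was the most frequent word, in 30.1% of members and 28.1% of all windows (1.25, 1.19 to 1.32). The E-box CACGTG, bound by MYC and related proteins, was found in 8.96% and 10.1% (1.22, 1.10 to 1.36). For the CRE (TGACGTCA), GRHL (AACCNGTT), FOX (TGTTTAC), hypoxia response (ACGTGC), STAT and HNF4 (CAAAGTCCA) words and the EBF, MEF2, NRF1 and NFI consensus words, the interval of the ratio to flanks held 1, as it did for C/EBP. In all windows these 10 words were found in between 0.088% (NFI) and 13.2% (STAT).

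Other words were less frequent in members than in their flanks. The AGATAAG word of the GATA family, which acts in erythroid and T cells, was found in 5.08% of members and 4.56% of all windows, with a ratio to flanks of 0.785 (0.684 to 0.900). The OCT octamer ATGCAAAT had a ratio of 0.779 (0.623 to 0.974), the TCF/LEF word CTTTGAA 0.864 (0.781 to 0.955) and the interferon response core GAAANNGAA 0.914 (0.842 to 0.992). These words are rich in A and T, and the members had more GC than the flanks. The part of base composition in these 4 ratios was not tested. Over all windows the TCF/LEF and interferon words were found in 8.66 and 13.0%, and the OCT word in 1.97% of members and 2.1% of all windows. For AP-1, the ratio was 2.75 also when the flanks were weighted to the GC content of the members.

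**Figure D2:**
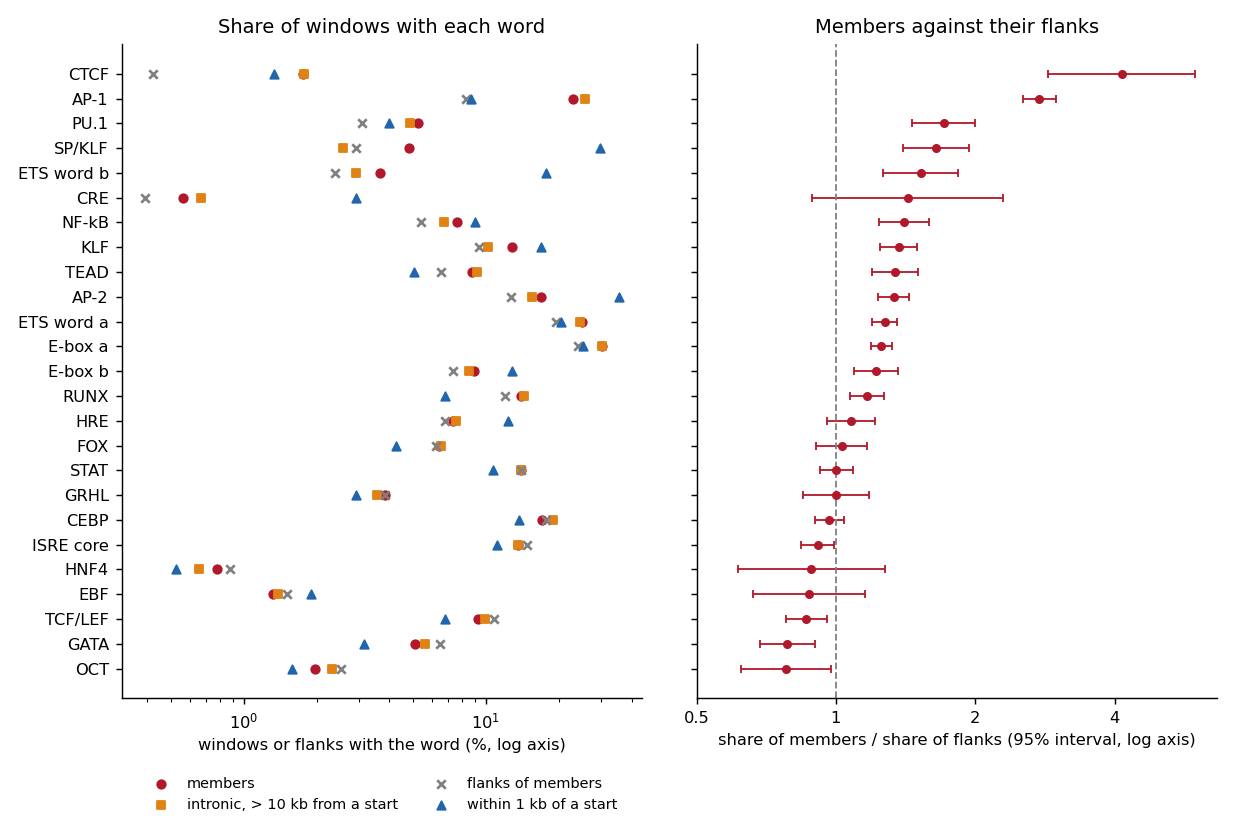
Share of regions that hold each of the 25 words found in at least 10 members (left, percent on a log axis) for the start-proximal intronic windows (members), far intronic windows, flanks and single-summit windows within 1 kb of a start, and the ratio of the member share to the flank share (right, log axis, bars are 95% intervals). ETS word a is CAGGAAG and b CCGGAAG, and E-box a is CAGCTG and b CACGTG; CTCF at 4.14 and AP-1 at 2.75 have the highest ratios, and GATA and OCT lie below 1.

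Compared with far intronic windows, members held the AP-1 word less often, by 2.85 percentage points (22.9 against 25.8%, interval of the difference -4.32 to -1.38). The C/EBP word TTGCNNAA was also less frequent (17.1 against 18.9%, interval of the difference -3.10 to -0.460 points). The other way went 4 words: the SP/KLF word was 2.23 points (1.58 to 2.91), the KLF word 2.61 points (1.51 to 3.73), the AP-2 word 1.48 points (0.211 to 2.76) and the ETS word CCGGAAG 0.751 points (0.141 to 1.38) more frequent in members. These 4 were also more frequent in windows within 1 kb of a start than in far intronic windows, but so were the NRF1, CRE and hypoxia response words, whose differences between members and far intronic windows were -0.0974 (-0.202 to 0.00303), -0.107 (-0.372 to 0.175) and -0.207 points (-1.10 to 0.706). The same held for the NF-kB, E-box CACGTG and EBF words, with differences of 0.823 (-0.0607 to 1.73), 0.405 (-0.562 to 1.39) and -0.0665 points (-0.458 to 0.345). Over all 50000 windows the SP/KLF word was found in 13.2%, the KLF word in 13.5%, the AP-2 word in 22.9% and the C/EBP word in 16.9%. In all, 6 of the 28 words had an interval of the difference that left out 0. For CTCF the difference was -0.0305 points (-0.478 to 0.437), for PU.1 0.383 points (-0.366 to 1.15), for RUNX -0.296 points (-1.49 to 0.913) and for TEAD -0.471 points (-1.45 to 0.521).

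**Figure D3:**
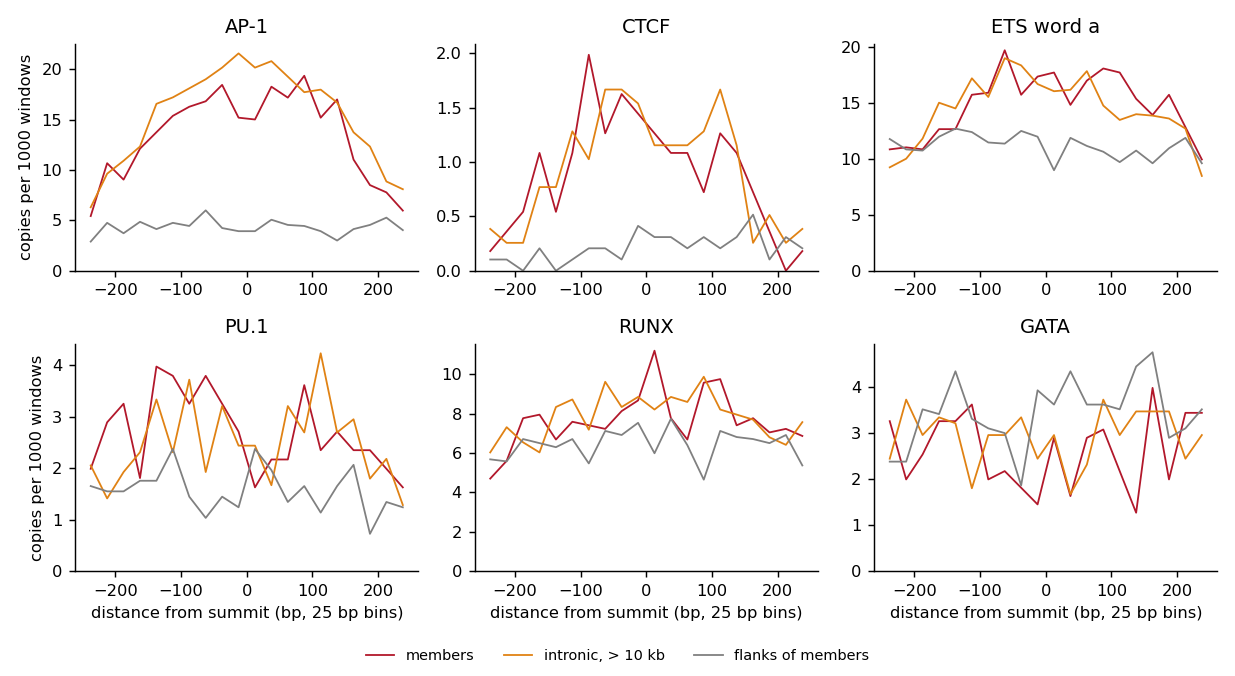
Copies of 6 words per 1000 windows (vertical axes, each with its own scale) in 25 bp bins by distance from the summit in bp (horizontal axes), for members, far intronic windows and flanks of members; ETS word a is CAGGAAG. AP-1 copies in members form a broad rise to 19.3 per 1000 against at most 5.99 in flanks, CTCF reaches 1.99 per 1000 against at most 0.52, and GATA shows no rise over the flanks.

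Within the set the words changed with distance to the start. At 1 to 2 kb 17.4% of members held the AP-1 word, at 2 to 5 kb 24.2% and at 5 to 10 kb 25.4%. The difference between the nearest and the most distant of these ranges was -8.05 percentage points (-10.7 to -5.30). The ETS word CAGGAAG differed in the same direction by -4.55 points (-7.36 to -1.67), and the ETS word CCGGAAG in the opposite one by 1.90 points (0.645 to 3.27). The SP/KLF word was found in 7.60% of members at 1 to 2 kb and 4.13% at 5 to 10 kb, a difference of 3.47 points (1.89 to 5.15). CTCF was found in 1.69% and 1.63% at these distances. With STAT (-2.59 points, -4.87 to -0.252), 5 of the 28 words had an interval that left out 0.

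Between first and later introns 4 of the 28 words had a difference whose interval left out 0. AP-1 was found in 22.7% of members in first introns (21.3 to 24.1) and 23.3% of those in later introns (21.5 to 25.1). PU.1 was 1.42 points (0.211 to 2.57) more frequent in first introns and the E-box CAGCTG 2.87 points less frequent (difference -2.87, -5.39 to -0.386). Upstream members held more CTCF words (2.59 against 1.42% downstream) (difference -1.17 points, -2.13 to -0.376, downstream minus upstream) and more RUNX words (15.8 against 13.3%, difference -2.46 points, -4.60 to -0.430). They also held more AP-1 words (difference -2.59 points, -5.12 to -0.140) and EBF words (-0.805 points, -1.65 to -0.128). Hypoxia response words were more frequent downstream (1.97 points, 0.462 to 3.35). Members with another window within 5 kb held fewer AP-1 words than those without (21.3 against 25.1%, difference -3.80 points, -6.08 to -1.54). RUNX and CTCF words were also less frequent in them. The ETS word CCGGAAG and the GRHL, AP-2, NF-kB, SP/KLF and KLF words were more frequent, all with intervals that left out 0. Over all 6 splits and 28 words 168 differences were computed, and their intervals were not adjusted for this number.

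Among 36 pairs of words, several differed in how often they shared a window. Members with the AP-1 word held the ETS word CAGGAAG in 27.6% of cases and those without it in 24.1%, a difference of 3.53 points (0.802 to 6.35). For the E-box CAGCTG the shares were 33.9 and 29.0% (difference 4.82 points, 1.91 to 7.79). AP-1 and CTCF were found together in 9 members, and CTCF was found in 0.710% of members with AP-1 against 2.06% of those without (difference -1.35 points, -1.93 to -0.610). Of 9 words considered in pairs (AP-1, ETS CAGGAAG, PU.1, RUNX, TEAD, CTCF, E-box CAGCTG, C/EBP and NF-kB), 1328 members (24.0%) held none.

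At the level of genes, 3654 of the 18473 protein-coding genes with eligible intron (19.8%) held at least 1 member. A single member was found in 2512 genes, 2 in 680 and 3 or more in the others. Genes with a promoter window held a member in 26.6% of cases (25.7 to 27.4) and those without in 11.9% (11.2 to 12.6).

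The gene with the most members was Gm20388 on chromosome 8, annotated over 4435 kb, with 62 members. Of these, 36 also lay in another protein-coding gene body. Fgfr2, Arfip1, 3110082I17Rik and Tg were likewise annotated across neighbouring genes: 12 of the 15 members of Fgfr2, 8 of 10 in Arfip1, 7 of 10 in 3110082I17Rik and 7 of 8 in Tg were shared with another gene. Myh9, the gene for the heavy chain of non-muscle myosin IIA, had the most members among genes that shared none with another gene, 11 over its body at chr15:77591017-77672605. They lay from -8.35 to 9.17 kb of their nearest Myh9 starts, and 4 of them held the AP-1 word. Ablim1, Rgs3, Ttc7 and Vgll4 had 9 members each. In Vgll4, whose product competes with YAP for TEAD factors, no member held the AP-1 word, 4 held the ETS word CAGGAAG and 2 the TEAD word. Ptp4a3, a phosphatase gene, had 8 members over 24.4 kb of eligible intron, 5 of them with the ETS word CAGGAAG and 1 with AP-1.

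Counted per 10 kb of eligible intron among genes with at least 3 members, Cdc25b was the densest. This gene for a phosphatase that activates cyclin-dependent kinases had 3 members at 7.25 per 10 kb, 1.12, 1.69 and 2.23 kb downstream of a start. Tnnt2, the gene for cardiac troponin T, had 6 members at 7.23 per 10 kb, 3.27 to 7.44 kb downstream of its start, and had no promoter window. Mmp14, a membrane-bound matrix protease gene, had 3 (6.21 per 10 kb). Ccnd2, the gene for cyclin D2, had 4 (5.57 per 10 kb), none with AP-1 and 1 with a CTCF word. In Serinc2, 4 of 5 members held the AP-1 word, 2 of them together with PU.1. Cd74, the invariant chain of MHC class II in B cells and other antigen-presenting cells, had 3 members at 1.23, 2.32 and 3.11 kb downstream, 2 of which held the RUNX word and none AP-1.

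By gene list, the rate of members was compared with 22.3 per Mb over all protein-coding genes. The share of genes with a member stands beside 19.8% over all genes with eligible intron, and lists differ in eligible intron per gene. Across 19 lists the rate ran from 98.8 per Mb in nuclear factor I genes to 0 in natural killer cell genes. It has to be read beside promoter windows, because genes with a promoter window had 27.5 members per Mb of eligible intron and genes without one 14.2.

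Among epithelial genes, those of cell junctions and simple keratins stood high. A member was found in 10 of the 19 junction genes with eligible intron (52.6%, against 19.8% of all such genes). The list had 20 members in 279 kb of eligible intron, 71.7 per Mb (43.8 to 111). Of its 22 genes, 20 had a promoter window. Ctnnd1, the gene for the cadherin partner p120-catenin, had 5 members at -6.53 to 4.92 kb from a start, 4 of them with the ETS word CAGGAAG and 2 with AP-1. Cgn, Epcam, F11r and Pkp2 had 2 each. Regulators of epithelial identity, of which 9 of 13 had a promoter window, had 9 members in 5 of 13 genes, 38.9 per Mb (17.8 to 73.8), with 2 each in Ehf, Grhl2, Grhl3 and St14.

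Signalling genes linked to growth factors had high rates too. Genes of EGF receptors, their ligands and the ERK pathway, a list that also held the p38 pathway kinase gene Map2k3, are called ERK pathway genes below. They had members in 12 of 20 genes (60.0%, against 19.8% of all genes with eligible intron) at 78.7 per Mb (48.7 to 120). Without chromosomes 1 and 10 to 13, where fewer numbered peak calls were kept in the list, the rate was 149 per Mb. Dusp4 and Dusp5, which encode phosphatases that switch off ERK, had 4 members at 1.30, 1.89, 7.35 and 8.19 kb and 3 members at 1.35, 1.90 and 2.54 kb downstream of their starts. Both more distant Dusp4 members held AP-1 and the ETS word CAGGAAG, and the nearer pair held neither. Etv5, an ETS factor gene induced by ERK, had 3 members. Egfr itself held 1 member, at -6.72 kb from the nearest Egfr start. Of the 20 genes in this list 18 had a promoter window.

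The Hippo pathway and TEAD genes had 29 members in 9 of 15 genes, 76.6 per Mb (51.3 to 110). Besides Vgll4, Amotl1 and Tead4 had 4 members each. Genes of the TGF-beta pathway had 25 members in 7 of 18 genes, 57.0 per Mb (36.9 to 84.2), with 7 in Pmepa1, 7 in Smad3 and 4 in Ski. In Smad3, the AP-1 word was found in 3 members, and in Pmepa1, which encodes a membrane inhibitor of SMAD signalling, in none. All 4 nuclear factor I genes held members: 6 in Nfix, 3 in Nfia, 3 in Nfic and 2 in Nfib, or 98.8 per Mb (54.0 to 166). AP-1 factor genes, a list that here also held Bach and Maf genes, had 10 members in 7 of 11 genes, 75.7 per Mb (36.3 to 139). Members in Bach2 (3), Mafk (2) and Bach1 are among these 10, and the others lay in Atf3, Fosb, Fosl1 and Fosl2. Promoter windows were found for 15 of 16 Hippo and TEAD, 15 of 18 TGF-beta, 12 of 15 AP-1 factor and all 4 nuclear factor I genes.

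Leukocyte genes had members as well. Fewer of them had a promoter window: 13 of 26 B cell, 10 of 25 T cell, 6 of 16 myeloid and 3 of 9 natural killer cell genes, and 18 of 26 general leukocyte genes. B cell genes had 20 members in 11 of 25 genes, 64.3 per Mb (39.3 to 99.4). Of these, 5 lay in Bcl6, which encodes a transcriptional repressor that acts in germinal centre B cells, and 3 each in Cd74 and Pou2f2. The 5 Bcl6 members lay 1.16, 3.40, 4.02, 5.21 and 6.26 kb downstream of a start in a first intron. None of them held AP-1, 3 held the SP/KLF word, and the member at 4.02 kb held a PU.1, an ETS and a RUNX word. General leukocyte genes had 19 members in 14 of 26 genes (53.8%, against 19.8% of all genes with eligible intron). With 537 kb of eligible intron the rate was 35.4 per Mb (21.3 to 55.3). Arhgdib, Cytip, Hcls1, Lcp1 and Runx1 had 2 each. Ptprc, which encodes the CD45 used for sorting, held no member in 9.00 kb of eligible intron, where a peak may have missed the q-value cut. T cell genes had 8 members in 7 of 25 genes, 21.3 per Mb (9.19 to 41.9), with 2 in Ets1. Natural killer cell genes had none in 40.3 kb of eligible intron, which allows up to 91.6 per Mb, and myeloid genes had 1, in Csf1r.

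Lists for cell types that were not sorted, and for housekeeping genes, gave a further background. Neuronal genes had 3 members in 574 kb of eligible intron, 5.22 per Mb (1.08 to 15.3), and hepatocyte genes 4, 24.6 per Mb (6.70 to 63.0). A promoter window was found for 4 of 14 neuronal, 2 of 14 hepatocyte, 2 of 10 endothelial and 2 of 10 erythroid genes. The neuronal interval held 14.2 per Mb, the rate of genes without a promoter window. Endothelial genes had 11 members at 45.3 per Mb (22.6 to 81.0), of which 8 lay in Vwf, the gene for von Willebrand factor, and 7 of the 11 held the AP-1 word. Erythroid genes had 6 members at 36.5 per Mb (13.4 to 79.5), 4 of them in Ank1, and 2 of the 6 held the PU.1 word. Proteasome genes had 9 members at 26.0 per Mb (11.9 to 49.4), although 30 of the 31 genes had a promoter window. Of these members 8 lay in Psma6 and Psmd1, and without chromosomes 1 and 10 to 13 the rate was 5.64 per Mb. Hypoxia genes had 6 members, 22.3 per Mb (8.17 to 48.5) or 13.5 without those chromosomes. Interferon and antigen presentation genes had 5, 63.4 per Mb (20.6 to 148) or 107 without them.

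**Figure D4:**
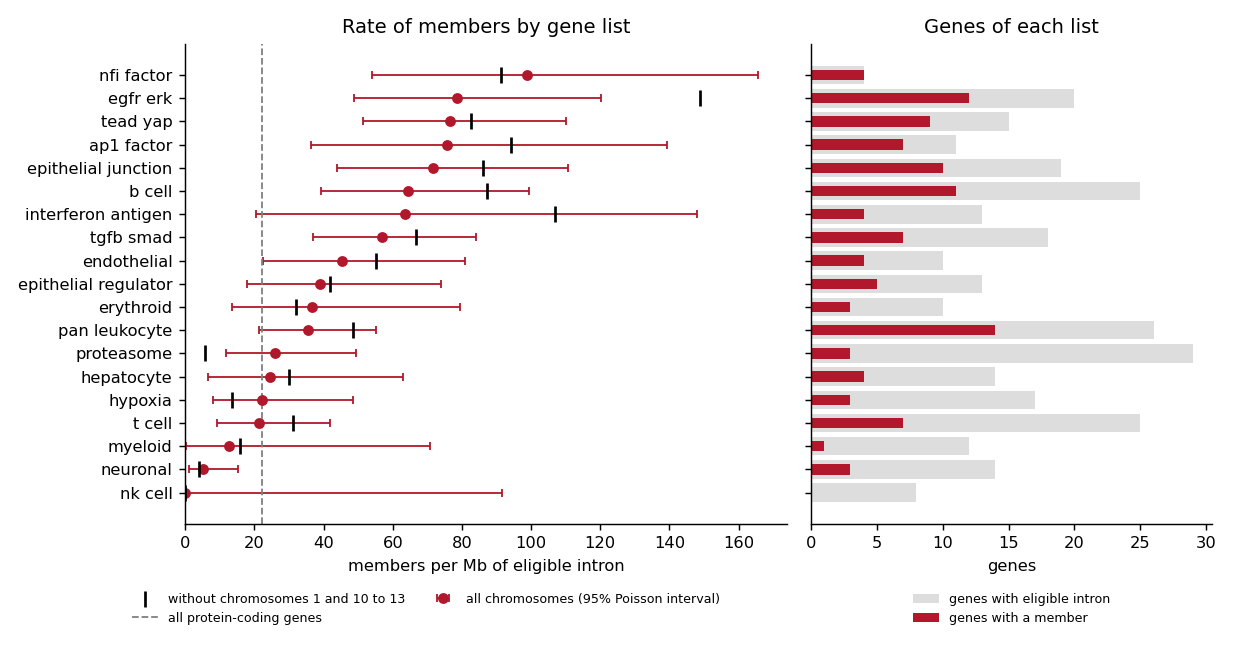
Start-proximal intronic windows per Mb of eligible intron in 19 gene lists (left, points with exact 95% Poisson intervals, ticks for the rate without chromosomes 1 and 10 to 13, dashed line for all protein-coding genes at 22.3 per Mb), and the number of genes in each list with eligible intron and with a member (right). Nuclear factor I, ERK pathway, Hippo and TEAD, AP-1 factor, epithelial junction, B cell, TGF-beta and endothelial genes have intervals wholly above the line, and neuronal genes wholly below it. The neuronal interval holds 14.2 per Mb, the rate of genes without a promoter window.

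Words in epithelial and leukocyte genes were set side by side. The 29 members in epithelial genes held the AP-1 word in 27.6% of cases (14.7 to 45.7) and the 48 in leukocyte genes in 16.7% (8.70 to 29.6), a difference of 10.9 points (-7.3 to 30.7). The ETS word CAGGAAG was found in 44.8 and 25.0% (difference 19.8 points, -1.6 to 40.1), PU.1 in 6.9 and 2.1% (4.8 points, -5.3 to 20.0), and RUNX in 17.2 and 12.5% (4.7 points, -10.8 to 23.3). At these counts no difference was detectable for the 4 words.

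**Figure D5:**
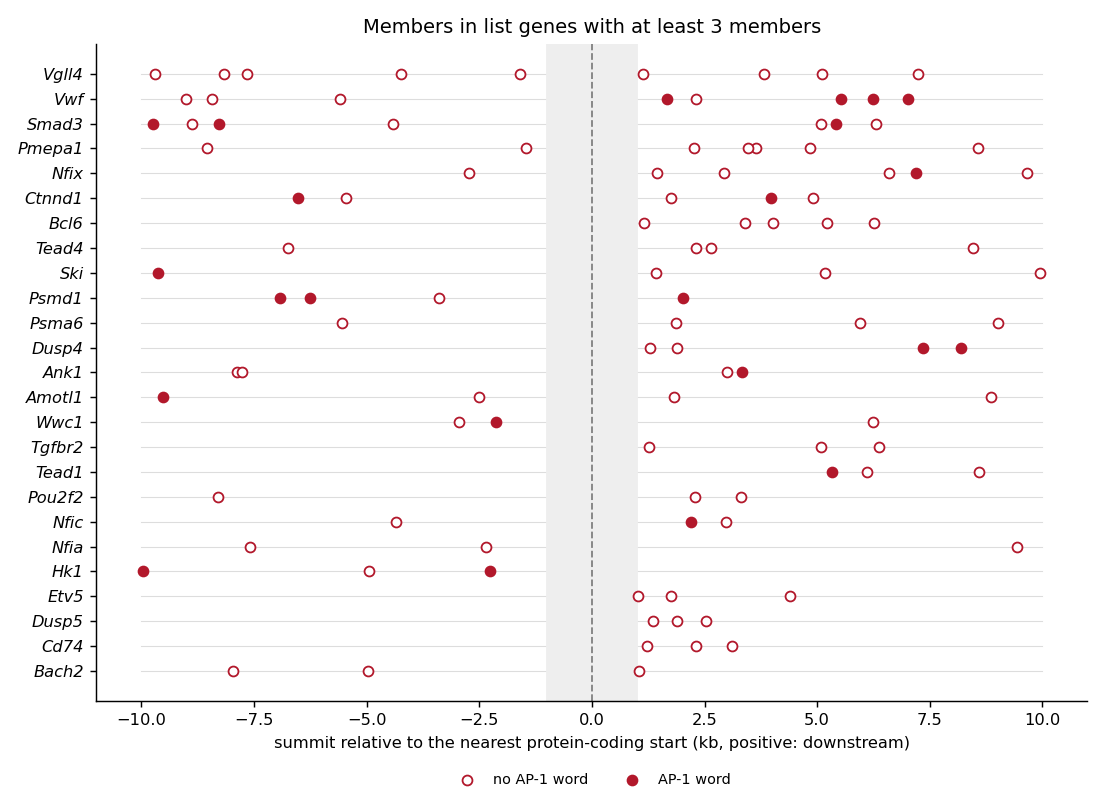
Members in 25 list genes with at least 3 members (rows), placed by the distance of the summit from the nearest protein-coding start in kb (horizontal axis, positive values downstream); filled points hold the AP-1 word and the grey band marks the 1 kb on either side of a start that the rule leaves out. None of the 9 members in Vgll4 is filled, while Vwf has 4 filled points of 8.

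The rate of members differed between chromosomes. On chromosomes 1 and 10 to 13, where 27.2 to 31.3% of the numbered peak calls were in the list against 38.2 to 44.4% elsewhere, there were 17.1 members per Mb of eligible intron, and on the other autosomes 25.0 (ratio 0.686, 0.641 to 0.734). The X chromosome had 7.34 per Mb (5.75 to 9.22), although 39.8% of its numbered calls were listed. Members on chromosomes 1 and 10 to 13 held the AP-1 word in 26.3% of cases and the others in 22.1%, with an interval of the difference from 1.36 to 7.18 points.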

How the data were processed

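Nuclei of 192 fixed and sorted cells were profiled by Pi-ATAC. By the methods and the submitters' processing notes, adapters were trimmed and read pairs aligned to mm9 using Bowtie2 2.1.0. Duplicates (Picard 1.79), poorly mapped reads and mitochondrial reads were discarded, and summits were called with MACS2 (version not given in the sources used here) on aggregated cells of a condition. For most datasets the methods kept only the top peaks with the lowest q-values. A missing window, also near a gene start, can therefore be a peak below this cut. The deposited values are positions, a start and an end per window, with a peak name, and the authors' list gives no count, score or p-value. Peak names hold the words cell line and all. The list was treated as a pool of both groups, although the methods leave this open. Read depth was not analysed here.

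Windows were placed on GENCODE vM1 (mm9), in which long non-coding genes were those typed lincRNA or processed_transcript and exons of every gene type counted. A first intron is one that is first in any transcript of a protein-coding gene. Eligible intron is every known base that met the position rule. Words in 28 forms were searched on both strands of the 500 bp, overlaps included. CTCF, NF-kB, EBF, NRF1, MEF2 and NFI were searched as longer consensus words. Of the HRE words, 52.9% overlapped the E-box CACGTG. Shares have Wilson, rates exact Poisson, ratios of rates exact conditional, ratios of shares log-normal and differences Newcombe intervals (95%), computed in Python 3.11.15 with numpy 2.4.6, scipy 1.17.1 and pandas 2.3.3 and checked on simulated data. With 1 pooled list there was no test over samples and no p-value.

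Members and gene lists (323 of 328 genes matched by symbol) were chosen with earlier results of these data known. Named genes are Epcam, Ptprc, those with most members in each list, the 15 with most members and the 15 densest. In the AP-1 factor list every gene with a member is named. Egfr, Cyp46a1 and Rell1 were chosen after their values were seen. Results for 1 list gene are left out of the text and the plots. Where a symbol had several gene identifiers, the one with most eligible intron was kept. Alternatives covered the exons and starts counted, both distance limits, chromosomes, neighbouring windows, the bases searched and the flanks.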

Additional observations from a re-analysis of the deposited data

How the results depend on the processing

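No paired analysis was possible because the deposited list carries no value per cell; the titles number the cells of each group, and the list carries none of these numbers. Of 52 values recomputed for 8 results, 45 stayed within the interval of the reported value (the number of windows within 1.5 times). The ratios and the AP-1 difference from far intronic windows kept their direction in every alternative. The number of windows, the shares and the median GC content are always positive and have no direction to change. With starts restricted to transcripts that are themselves typed protein-coding or long non-coding, the rate ratio of 1 to 2 kb over 9 to 10 kb was 2.60 in place of 2.16. With an outer limit of 5 kb there were 3453 members, the AP-1 share was 21.4%, the share with a promoter window 77.8% and the AP-1 difference from far intronic windows -4.38 points. That limit leaves no 9 to 10 kb bin, so the rate ratio by distance has no value there. In the central 200 bases alone the AP-1 share was 12.4%, since fewer bases were searched, and its ratio to flanks 3.42. For the gene lists, the rate without chromosomes 1 and 10 to 13, an alternative chosen after seeing the data, left the interval of the reported rate for ERK pathway genes (149 per Mb) and proteasome genes (5.64 per Mb). The alternative that drops repeat-rich windows was not run, because the reference used carries no repeat marking. The cause of these shifts was not tested. The list has no read depth, and lists with few members limit what can be told apart.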
